A study of Mus musculus with 121 samples.

Results

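The genes described here encode the receptors for glutamate and the proteins that load glutamate into vesicles or take it up into neurons. They are 28 of the 24412 genes in a count table of mouse brain RNA and were chosen by gene symbol and family. The set holds 4 AMPA receptor subunits (Gria1, Gria2, Gria3 and Gria4), 7 NMDA receptor subunits (Grin1, Grin2a, Grin2b, Grin2c, Grin2d, Grin3a and Grin3b), 5 kainate receptor subunits (Grik1, Grik2, Grik3, Grik4 and Grik5) and the delta receptor subunit Grid1. It also holds the metabotropic receptors Grm2, Grm3, Grm4, Grm5, Grm6, Grm7 and Grm8, the 3 vesicular transporters Slc17a7 (VGLUT1), Slc17a6 (VGLUT2) and Slc17a8 (VGLUT3), and the neuronal uptake transporter Slc1a1 (EAAC1).

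The study asked how more of the body's own GDNF, a growth factor for dopamine neurons, alters gene expression in the brain. RNA from 43 male mice was sequenced, with 1 library for each mouse and region, from prefrontal cortex (PFC), striatum (STR) and substantia nigra (SN). The mice carry a conditional allele of Gdnf, named cKU, that Cre recombinase switches to a form giving more Gdnf. Each region was compared between wt/wt mice (WT), wt/cKU mice (HET) and cKU/cKU mice (HOM).

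There were 2 models, both on a mixed 129Ola/ICR/C57bl6 background. In the Nestin-Cre model (21 mice, aged 2 months, not injected) Cre acts throughout the central nervous system from mid-gestation. Its PFC groups held 8 WT, 6 HET and 4 HOM libraries, and its STR and SN groups each held 6 WT, 7 HET and 6 HOM libraries. In the AAV-Cre model (22 mice, aged 5 to 7 months) a virus carrying Cre was injected into the striatum of both hemispheres at 3 to 5 months, in WT mice as well as in HET and HOM mice. Its PFC and SN groups each held 7 WT, 7 HET and 8 HOM libraries, and its STR groups held 7 of each genotype. In this model PFC and SN lie outside the injected region, and the models differ in age, Cre source and injection together. Each library came from a separate animal within its group, so the p-values below measure the spread between animals. Of the mice, 36 gave libraries of all 3 regions. The main tests between regions, and of interactions with region, took these libraries as independent, and mouse as a block was an alternative.

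Glutamate is the main excitatory transmitter of the brain. AMPA receptors carry the fast part of the current and NMDA receptors, built from an obligatory Grin1 subunit with Grin2 or Grin3 partners, pass calcium when transmitter and depolarisation coincide, while kainate and metabotropic receptors mostly modulate release and excitability. Cortical projection neurons use Slc17a7, thalamic and many midbrain and brainstem neurons use Slc17a6, and striatal cholinergic and some serotonergic neurons carry Slc17a8, so these transporters mark the source of a glutamatergic cell.

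Total counts ran from 9869584 to 26750905 per library, and no library gave over 6.14% of its reads to its 10 top genes. The labelled regions were checked against marker genes, as the sum over each list of cpm, the count scaled to library size. Sums over 10 of 10 striatal projection neuron markers were 9420.2 to 12132 (median 10487) in Nestin-Cre STR WT and 6314 to 8686 (median 7596) in AAV-Cre STR WT libraries, against at most 1627 in any WT library of the other regions. Sums over 10 of 10 midbrain dopamine neuron markers, led by Slc6a3, were 3555 to 5024 (median 3849.6) in Nestin-Cre SN WT and 2715 to 5606 (median 3872) in AAV-Cre SN WT libraries, against at most 181 elsewhere. Sums over 10 of 10 cortical excitatory neuron markers, led by Lamp5 in PFC, were 651 to 859 (median 754) in Nestin-Cre PFC WT, 309 to 428 (median 341) in Nestin-Cre STR WT and 85.6 to 141 (median 96.8) in Nestin-Cre SN WT libraries. The WT libraries of STR and SN in both models, and of PFC in Nestin-Cre mice, thus stood apart from the other regions by the markers of their labels. Choroid plexus sums, led by Ttr, set 2 of the 7 AAV-Cre STR WT libraries apart, at 7895 and 5458 cpm against 83.7 to 269 in the other 5. These sums also set mutant libraries apart. A Nestin-Cre STR HET library had 18918 cpm against 23.7 to 162 in the others of its group. An AAV-Cre SN HET library had 20046 cpm against 16.5 to 212, and the PFC library of that mouse had 1261 cpm. AAV-Cre STR HET libraries reached 6728 and 5029 cpm, and HOM libraries 6327 and 4825 cpm. Results were not repeated without these libraries. In SN, striatal projection neuron sums set 1 Nestin-Cre HET library apart, at 1506 cpm against 284 to 355 in the other 6. They also set 1 AAV-Cre WT library apart, at 859.6 cpm against 282 to 393. Genotype results in SN were repeated without each of these 2 libraries, alternatives added after the data were seen.

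Gdnf itself was a low transcript, and outside STR no library exceeded 1.69 cpm. In AAV-Cre STR it was 5.34 to 7.51 cpm (median 6.78) in WT, 6.36 to 9.58 cpm (median 7.52) in HET and 7.62 to 9.96 cpm (median 8.61) in HOM libraries, and all 7 HOM libraries lay above all 7 WT libraries. In Nestin-Cre STR it was 3.96 to 7.7 cpm (median 6.26) in WT, 4.03 to 9.39 cpm (median 5.57) in HET and 5.64 to 9.81 cpm (median 6.84) in HOM libraries, which overlapped. The means of these 3 groups were 5.97, 6.24 and 7.19 cpm. The labels of 1 Nestin-Cre mouse disagree, with WT for PFC but HOM for STR and SN; its libraries were used as labelled, and leaving them out lost 1 call of a member, the interaction of Grik2 for SN minus PFC between models (adjusted p = 0.105), while the count over all genes in Nestin-Cre PFC HET against WT went from 0 to 91.

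A second property of the libraries bears on several of these genes. For each library a long-gene index was taken as the mean log2 cpm of 773 genes with at least 8 kb of exon, none of them among the 28, minus that of 4387 genes with under 2 kb; it was chosen after the values had been seen. In Nestin-Cre WT libraries the index was 2.70 to 3.00 (median 2.90) in PFC, 2.17 to 2.80 (median 2.31) in STR and 1.93 to 2.40 (median 2.08) in SN. In AAV-Cre WT libraries it was 2.71 to 2.94 (median 2.81) in PFC, 2.63 to 2.89 (median 2.85) in STR and 2.65 to 2.92 (median 2.82) in SN. By their medians, long transcripts were less represented in Nestin-Cre STR and SN than in the other WT groups, and the STR ranges of the 2 models overlap. No label records RNA integrity, and whether the index reflects RNA quality or cell content was not tested.

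Of the 28 genes, 27 reached at least 1 cpm in at least 3 of the 41 WT libraries and could be tested there. Grm6, a receptor known from retinal bipolar cells, had at most 2 counts in any library and 10 counts over the whole table, and was not tested. On a scale corrected for transcript length (RPKM, cpm per kb of exon), the highest median level in Nestin-Cre PFC WT was that of Slc17a7 at 597 RPKM, followed by Grin1 at 139 and Gria2 at 101 RPKM. In Nestin-Cre STR WT the highest were Grin1 at 152, Gria2 at 109 and Gria1 at 104 RPKM, and in Nestin-Cre SN WT Grin1 at 48.8, Slc17a6 at 46.9 and Gria1 at 41.6 RPKM. Of the tested genes Grin3b was lowest in Nestin-Cre PFC and STR WT, at 0.0259 and 0.159 RPKM, and in Nestin-Cre SN WT Slc17a8 and Grin3b were lowest, each at 0.258 RPKM. The obligatory NMDA subunit Grin1 thus stood far above its partners in Nestin-Cre PFC WT, Grin2a (2.81 RPKM) and Grin2b (4.58 RPKM) among them. Of the other partners, Grin2c and Grin3a lay above Grin2a and Grin2b there, and Grin2d and Grin3b lay below. RPKM rests on the exon length counted for each gene. Whether that length covers the whole transcript was not tested, so these levels do not give the ratio of subunits.

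**Figure D1:**
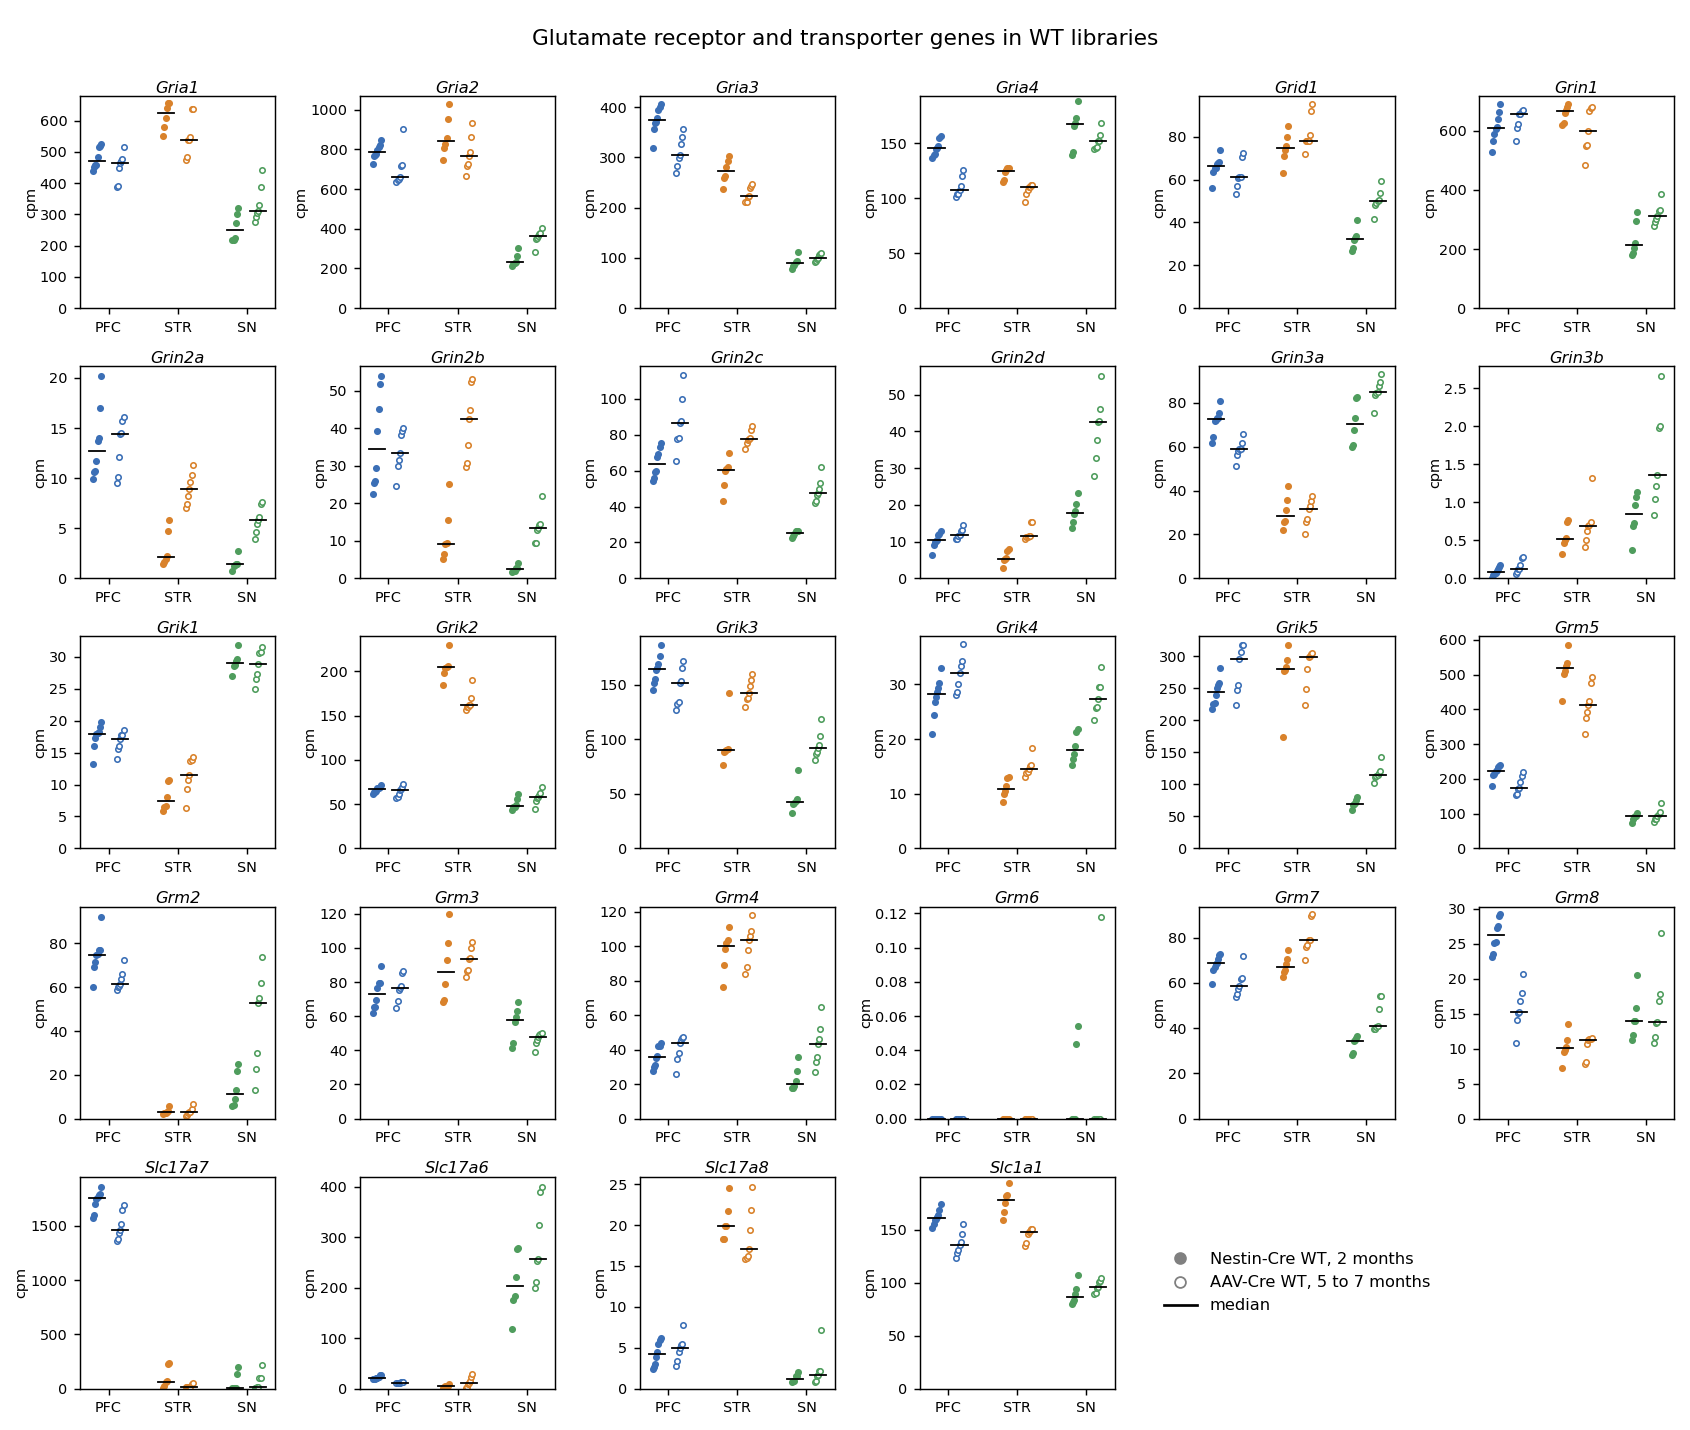
Level of each of the 28 genes in every WT library, in cpm, by region, with filled points for Nestin-Cre and open points for AAV-Cre mice and bars at group medians. Slc17a7 is highest in PFC and Slc17a6 in SN, and Grin2a and Grin2b are lower in Nestin-Cre than in AAV-Cre STR and SN.

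Regions were compared within the WT mice of each model, and a gene was called at an adjusted p under 0.1 with at least a 2-fold difference. In Nestin-Cre WT mice 14 of 27 members differed between STR and PFC (5 higher and 9 lower in STR), against 16.2% of 15318 genes. Between SN and PFC 16 differed (2 higher, 14 lower in SN), against 24.8%, and between SN and STR 20 differed (5 higher, 15 lower in SN), against 26%. In AAV-Cre WT mice the counts were 8 for STR against PFC (5 higher, 3 lower), with 12.7% of all genes, 11 for SN against PFC (3 higher, 8 lower), with 17.2%, and 16 for SN against STR (7 higher, 9 lower), with 18.5%. Grin3b is in 5 of these 6 counts but reached 1 cpm in 0 PFC, 1 STR and 8 SN libraries of WT mice, so it entered the test almost only through the region where it is high and had to differ. Of the other 26 members 13, 15 and 20 were called in Nestin-Cre mice and 7, 10 and 15 in AAV-Cre mice for STR against PFC, SN against PFC and SN against STR. The median log2 difference of these 26 between SN and PFC was -1.05 in Nestin-Cre and -0.54 in AAV-Cre WT mice, beside -0.02 and -0.02 over all genes. Oligodendrocyte marker sums were 17896 to 33695 cpm in SN and 4239 to 7419 cpm in PFC of Nestin-Cre WT mice. In AAV-Cre WT mice they were 13361 to 20545 cpm in SN and 3973 to 5188 cpm in PFC. The part of this marker difference in the regional results was not tested. No member was called in opposite directions in the 2 models, and without Grin3b 7, 9 and 13 members were called the same way in both models for STR against PFC, SN against PFC and SN against STR, against 10.3%, 14.6% and 16.1% of all genes. In bulk tissue a lower level can mean fewer cells of a type or less RNA per cell, which cannot be told apart.

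Of the members, the vesicular transporters Slc17a7 and Slc17a6 gave the widest regional differences. Slc17a7, carried by cortical projection neurons, was 1574 to 1857 cpm (median 1755) in PFC, 7.06 to 233 cpm (median 66.6) in STR and 5.33 to 200.3 cpm (median 9.36) in SN of Nestin-Cre WT mice. The AAV-Cre WT values were 1363 to 1688 cpm (median 1459.9), 12.1 to 49.7 cpm (median 19.6) and 4.14 to 217 cpm (median 15.1) in the same order. Every PFC library lay above every STR and SN library, while STR and SN libraries overlapped and spread widely within each group. SN and PFC differed in Nestin-Cre mice (log2 difference -4.85, SE 0.85, adjusted p = 2.96e-06), as did STR and PFC in AAV-Cre mice (log2 difference -5.91, SE 0.85, adjusted p = 1.51e-07). Between SN and STR, Slc17a7 was called higher in SN of AAV-Cre WT mice (log2 difference 1.36, SE 0.72, adjusted p = 0.0913), although its median was lower there than in STR. Of the 7 SN libraries 3 lay above all STR libraries and 2 below all of them, so the sign of this difference rests on the highest SN libraries. With mouse as a block the difference was 0.73 with an adjusted p of 0.393, and with only the libraries of these regions the adjusted p was 0.105 (range over its alternatives 4.19e-38 to 0.393).

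Slc17a6, carried by thalamic and many midbrain neurons, was highest in SN. In Nestin-Cre WT mice it was 19.1 to 27.9 cpm (median 21.2) in PFC, 2.1 to 10.3 cpm (median 5.65) in STR and 118 to 279.8 cpm (median 203) in SN. AAV-Cre WT mice had 10.9 to 14.3 cpm (median 11.9), 1.84 to 29.4 cpm (median 12.2) and 199 to 400.4 cpm (median 258) in PFC, STR and SN. All SN libraries lay above all PFC and STR libraries in both models, and SN exceeded STR by a log2 difference of 5.20 (SE 0.39, adjusted p = 4.8e-15) and 4.43 (SE 0.34, adjusted p = 1.09e-14) in the Nestin-Cre and AAV-Cre models. Slc17a8, carried by striatal cholinergic interneurons, was 2.36 to 6.15 cpm (median 4.2) in PFC, 18.3 to 24.5 cpm (median 19.8) in STR and 0.827 to 2.06 cpm (median 1.22) in SN of Nestin-Cre WT mice. Its AAV-Cre WT levels were 2.76 to 7.76 cpm (median 4.93), 15.8 to 24.7 cpm (median 17) and 0.768 to 7.19 cpm (median 1.73). All STR libraries lay above all PFC and SN libraries in both models. It was the one member called in all 6 regional comparisons, with STR over PFC at 2.25 and 1.94 and SN under STR at -3.99 and -2.99 on the log2 scale in the Nestin-Cre and AAV-Cre models. Each of the 3 transporters therefore had its highest WT level in a different region.

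**Figure D2:**
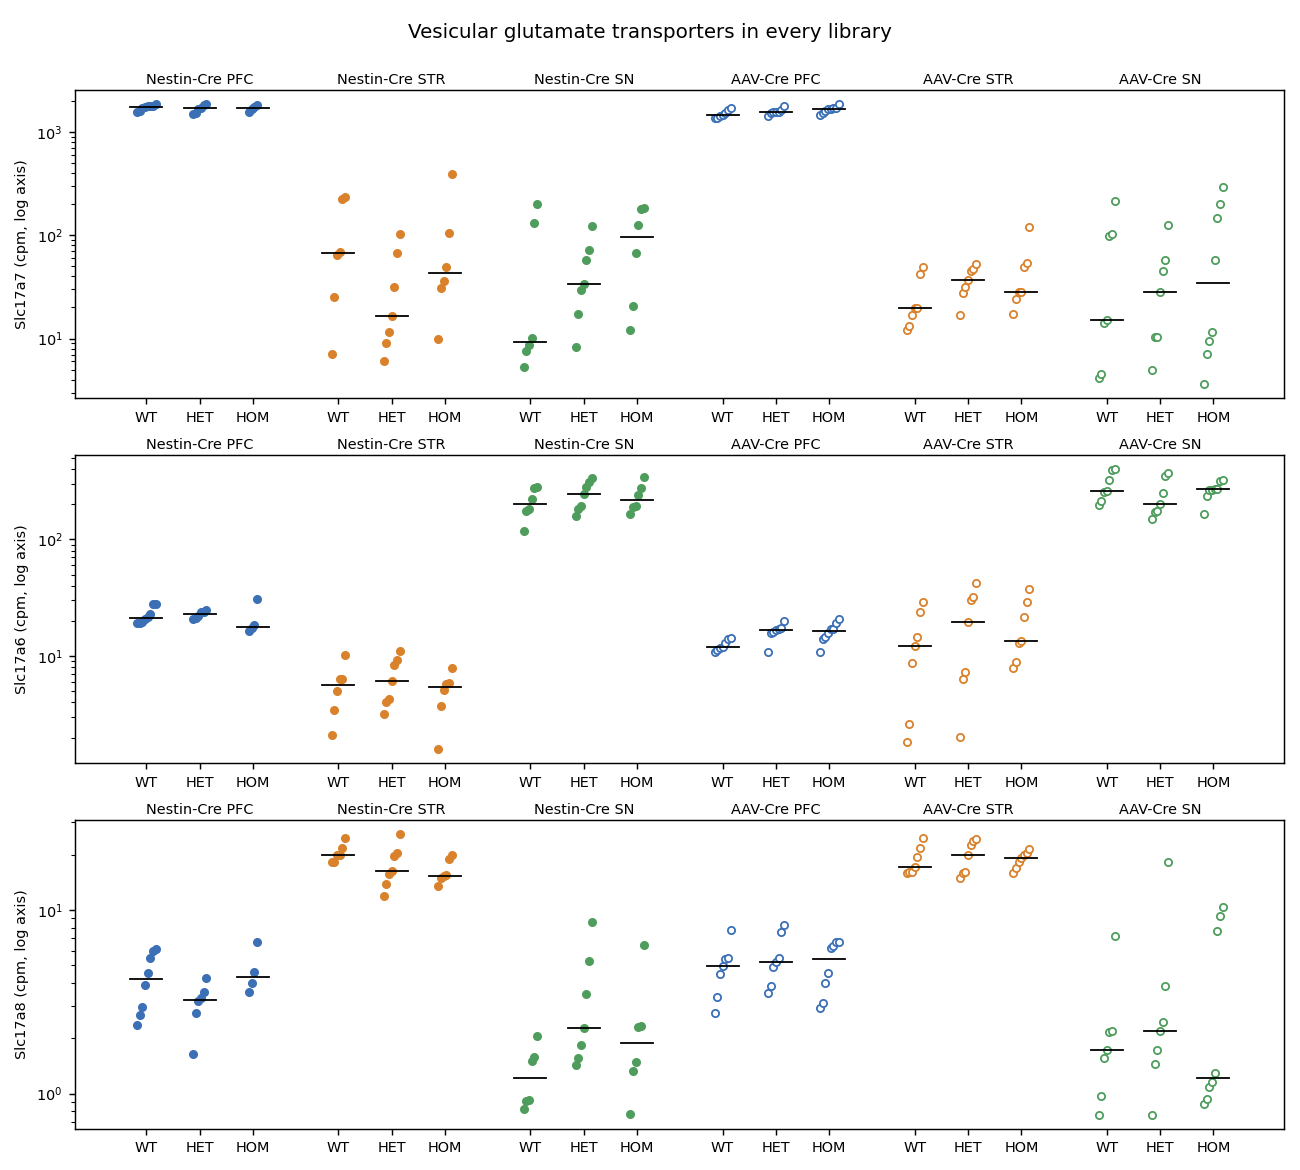
Level of the 3 vesicular transporters in every library of the 18 groups, in cpm on log axes, by model, region and genotype, with bars at group medians. Slc17a7 is highest in PFC, Slc17a6 in SN and Slc17a8 in STR, and within each region the genotypes overlap.

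Outside PFC the spread of Slc17a7 was related to cortical marker levels in 3 of 4 sets of libraries by both r and rho, at an adjusted p under 0.1. Correlations were computed on log2 values over all libraries of a model and region, after the mean of each genotype was removed. There were 22 relations, 12 of them with the long-gene index, chosen after values were seen, each with 100000 permutations, so that 1e-05 is the smallest p they can give. For Slc17a7 with the sum of cortical excitatory neuron markers, the 19 Nestin-Cre SN libraries gave r = 0.69 (permutation p = 0.0013, adjusted 0.00204), rho = 0.64 (permutation p = 0.0037, adjusted 0.00626), r without the 2 farthest libraries 0.63. The 22 AAV-Cre SN libraries gave r = 0.77 (permutation p = 4e-05, adjusted 1.57e-04), rho = 0.75 (permutation p = 1.2e-04, adjusted 3.18e-04), r without the 2 farthest libraries 0.71. In STR the relation was r = 0.75 (permutation p = 1.7e-04, adjusted 4.16e-04), rho = 0.80 (permutation p = 8e-05, adjusted 2.51e-04), r without the 2 farthest libraries 0.63 in the 19 Nestin-Cre libraries and r = 0.40 (permutation p = 0.0731, adjusted 0.0846), rho = 0.36 (permutation p = 0.112, adjusted 0.129), r without the 2 farthest libraries 0.40 in the 21 AAV-Cre libraries. This last relation passed by r and not by rho, and adjusted over the 10 relations with markers alone its r had a p of 0.104. Slc17a6 in AAV-Cre STR was related to thalamic, subthalamic and red nucleus markers, with r = 0.80 (permutation p = 5e-05, adjusted 1.57e-04), rho = 0.84 (permutation p = 1e-05, adjusted 7.33e-05), r without the 2 farthest libraries 0.78, and in the other 3 sets tested its r lay between -0.33 and 0.06. The sum of 6 serotonergic markers was 31.4 to 144 (median 60.8) in Nestin-Cre SN WT and 29.6 to 118 (median 44) in AAV-Cre SN WT libraries. Slc17a8 with these markers gave r = 0.63 (permutation p = 0.00156, adjusted 0.00215), rho = 0.64 (permutation p = 0.0017, adjusted 0.00312), r without the 2 farthest libraries 0.67 in AAV-Cre SN, and r = 0.45 (permutation p = 0.051, adjusted 0.0623), rho = 0.45 (permutation p = 0.0539, adjusted 0.0698), r without the 2 farthest libraries 0.30 in Nestin-Cre SN. Adjusted over the 10 relations with markers alone, the permutation p of Slc17a8 in Nestin-Cre SN were 0.0849 for r and 0.0899 for rho. The AAV-Cre SN WT library with the most Slc17a8 also had the highest sum of striatal projection neuron markers, 859.6 cpm beside a group median of 314. In STR WT libraries the sum of thalamic, subthalamic and red nucleus markers was led by Six3, and which cells of STR carried it was not tested. How much of each transporter's level came from tissue at the edge of the dissected region was not tested.

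Among AMPA receptor subunits, which carry fast excitatory current, Gria2 and Gria3 were called lower in SN than in PFC and STR in both models. Gria3 was 319.5 to 405 cpm (median 375) in PFC, 238 to 302 cpm (median 272) in STR and 77.9 to 112 cpm (median 89.8) in SN of Nestin-Cre WT mice. Among AAV-Cre WT mice it had 269 to 356 cpm (median 305), 212 to 247 cpm (median 223) and 91.8 to 109.8 cpm (median 99.4). All SN libraries lay below all PFC and STR libraries (Nestin-Cre SN against PFC: log2 difference -2.05, SE 0.07, adjusted p = 3.09e-25). Gria2, the subunit that makes the receptor impermeable to calcium, differed between SN and PFC by -1.71 in Nestin-Cre and -1.01 in AAV-Cre WT mice on the log2 scale; the second lies at the 2-fold minimum and fell short of it under 4 alternatives, DESeq2 and its size factors among them, at -0.98 with DESeq2's size factors. Gria1 passed in 1 of 6 comparisons, SN against STR in Nestin-Cre mice (-1.26). Gria4 passed in none, with log2 differences from -0.25 to 0.47 and its highest median RPKM in SN (27.2 in Nestin-Cre and 24.6 in AAV-Cre WT mice). The delta receptor subunit Grid1 was 56.1 to 73.9 cpm (median 66.4) in PFC, 63 to 85 cpm (median 74.8) in STR and 26.6 to 41.2 cpm (median 32.3) in SN of Nestin-Cre WT mice and 53.1 to 72.5 cpm (median 61.1), 71.8 to 95.5 cpm (median 78.2) and 41.7 to 59.5 cpm (median 49.98) in AAV-Cre WT mice. It was called lower in SN than in PFC and STR in the Nestin-Cre model, at -1.04 and -1.22, while in the AAV-Cre model the differences were -0.34 and -0.73 and were not called. With the long-gene index as a covariate the Nestin-Cre value for SN against PFC was -0.72 and was not called.

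NMDA receptor subunits went in both directions. Grin1 was lower in SN than in PFC in both models, at -1.40 and -1.03 on the log2 scale; the second fell short of the 2-fold minimum with DESeq2 and with its size factors (-0.995 in the latter case). Grin2a was lower in SN than in PFC in both models, at -3.19 and -1.21, and in Nestin-Cre WT mice also lower in STR than in PFC (-2.16) and in SN than in STR (-1.03). Grin2b, a subunit of slow NMDA currents, was 22.5 to 53.9 cpm (median 34.4) in PFC, 5.07 to 25.1 cpm (median 9.26) in STR and 1.72 to 3.97 cpm (median 2.38) in SN of Nestin-Cre WT mice. With AAV-Cre WT mice the values were 24.6 to 40.05 cpm (median 33.5), 29.8 to 53 cpm (median 42.5) and 9.33 to 22.1 cpm (median 13.5). In Nestin-Cre WT mice all 6 SN libraries lay below all PFC and STR libraries (SN against PFC: log2 difference -3.86, SE 0.30, adjusted p = 1.3e-14), and 5 of 6 STR libraries lay below all 8 PFC libraries. In AAV-Cre WT mice SN was lower than STR (log2 difference -1.61, SE 0.24, adjusted p = 2.18e-07) while STR and PFC overlapped. Grin2d, a subunit typical of subcortical neurons, was higher in SN than in STR in both models, at 1.64 and 1.69, and so was Grin3a, at 1.21 and 1.48. The SN and STR levels of Grin3b stood above those of PFC in both models, a description and no test for the reason given above, and from very few reads: at most 3 counts in a Nestin-Cre PFC WT library and 26 in a Nestin-Cre SN WT library. Grin2c was lower in SN than in both other regions in Nestin-Cre WT mice, at -1.38 and -1.22, and was not called in AAV-Cre WT mice.

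Of the kainate receptor subunits, Grik2 had its highest level in STR. It was 62 to 72 cpm (median 66.6) in PFC, 185 to 229.9 cpm (median 204) in STR and 43.6 to 61.1 cpm (median 48.3) in SN of Nestin-Cre WT mice. Levels in AAV-Cre WT mice were 57.3 to 72.8 cpm (median 65.7), 157 to 190.1 cpm (median 162) and 44.9 to 68.8 cpm (median 58.5). All STR libraries lay above all others in both models (SN against STR: log2 difference -2.03, SE 0.08, adjusted p = 7.24e-24 in Nestin-Cre mice, and log2 difference -1.55, SE 0.07, adjusted p = 2.58e-21 in AAV-Cre mice). Grik1 went the other way, higher in SN than in STR at 1.84 and 1.30. Grik5, a subunit that needs a Grik1, Grik2 or Grik3 partner to form a channel, was lower in SN than in STR at -1.96 and -1.28, and Grik4, of the same class, was lower in STR than in PFC at -1.32 and -1.11. Grik3 was called lower in SN than in PFC and STR in Nestin-Cre WT mice alone, at -1.85 and -1.09, and with the long-gene index as a covariate at -0.96 and -0.77, short of the 2-fold minimum.

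Metabotropic receptors also divided by region. Grm5, a group I receptor coupled to calcium release and strong in striatal projection neurons, was 181 to 241 cpm (median 224) in PFC, 426 to 584 cpm (median 519) in STR and 73.9 to 103 cpm (median 92.4) in SN of Nestin-Cre WT mice. The AAV-Cre WT values were 153 to 219.9 cpm (median 174), 328 to 494 cpm (median 414) and 76.9 to 132 cpm (median 93.6). All STR libraries lay above all PFC libraries, which lay above all SN libraries (log2 difference -2.52, SE 0.11, adjusted p = 1.81e-22 for SN against STR in Nestin-Cre mice). The group II receptor Grm2, a presynaptic brake on glutamate release, was 60.1 to 92.2 cpm (median 74.8) in PFC, 1.91 to 5.55 cpm (median 2.81) in STR and 5.7 to 24.9 cpm (median 11.1) in SN of Nestin-Cre WT mice. AAV-Cre WT mice had 58.9 to 72.3 cpm (median 61.4), 1.32 to 6.88 cpm (median 3.05) and 13 to 74 cpm (median 52.7). All STR libraries lay below all PFC libraries (Nestin-Cre: log2 difference -4.52, SE 0.35, adjusted p = 2.98e-14; AAV-Cre: log2 difference -4.29, SE 0.34, adjusted p = 4.59e-14), and SN values spread widely. Grm3, a group II receptor found in astrocytes as well as neurons, was called in 1 of 6 comparisons, SN against STR in AAV-Cre WT mice, at -1.02, a value at the 2-fold minimum that fell short of it under 2 alternatives. Of the group III receptors, Grm4 was 27.9 to 43.6 cpm (median 35.8) in PFC, 76.4 to 111 cpm (median 100.003) in STR and 17.7 to 35.9 cpm (median 20.2) in SN of Nestin-Cre WT mice and 26 to 47 cpm (median 43.9), 84 to 118 cpm (median 104) and 27.3 to 64.6 cpm (median 43.4) in AAV-Cre WT mice. It was higher in STR than in PFC in both models, at 1.42 and 1.32, and lower in SN than in STR, at -2.06 and -1.25. Grm7 and Grm8 were called in Nestin-Cre WT mice alone, Grm7 lower in SN than in PFC and STR at -1.06 and -1.05 (-0.76 and -0.94, not called, with the long-gene index as a covariate) and Grm8 lower in STR than in PFC at -1.35. The uptake transporter Slc1a1 was 151 to 174 cpm (median 161) in PFC, 159 to 194 cpm (median 178) in STR and 79.97 to 107 cpm (median 86.7) in SN of Nestin-Cre WT mice and 123 to 156 cpm (median 135), 134 to 151 cpm (median 148) and 89.1 to 104 cpm (median 95.7) in AAV-Cre WT mice. It was called in no regional comparison, since its largest log2 difference was -0.99 (adjusted p = 3.87e-18), short of the 2-fold minimum, although every Nestin-Cre SN WT library lay below every STR WT library.

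These regional calls were repeated with the long-gene index of each library as a covariate, an alternative added after the data were seen. All 35 regional calls of members in AAV-Cre WT mice were kept, those of Grin3b among them. In contrast 10 of 50 in Nestin-Cre WT mice were lost, 8 of them by the 2-fold minimum alone. For STR against PFC the log2 differences lost were those of Grin2a (-0.996), Grin2b (-0.36, adjusted p = 0.244) and Grin3a (-0.82). For SN against PFC, Grm5 (-0.92) was lost beside Grid1, Grik3 and Grm7. For SN against STR, Grin2a (-0.24, adjusted p = 0.328) was lost beside Grik3 and Grm7. Grin2a for SN against PFC went from -3.19 to -1.23 and Grin2b from -3.86 to -1.73, and both were kept. Over all genes the calls in Nestin-Cre WT mice went from 2486 to 2221, from 3798 to 3068 and from 3990 to 3988 for STR against PFC, SN against PFC and SN against STR. Region and index differ together in Nestin-Cre WT mice, and their parts cannot be told apart.

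WT mice of the AAV-Cre and Nestin-Cre models were then compared in each region. Age, Cre source, injection and any difference in handling change together here and cannot be told apart. In PFC, edgeR called 0 of 27 members, against 1.49% of 15318 genes, with 11 members at an unadjusted p under 0.05 (42.9% of all genes) and 0 called by the likelihood ratio test (1.78%) or DESeq2 (1.55%). In STR 5 members differed (4 higher and 1 lower in AAV-Cre mice), against 5.54%, and in SN 5 members were higher, against 4.84%. The 27 members had a median log2 difference of -0.07, 0.08 and 0.49 in PFC, STR and SN, beside 0.01, 0.01 and 0.04 over all genes, and 24 of 27 were positive in SN. Sums over 10 of 10 oligodendrocyte markers were 17896 to 33695 (median 28543) cpm in Nestin-Cre and 13361 to 20545 (median 17546) cpm in AAV-Cre SN WT libraries. The part of this difference in the SN results was not tested.

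NMDA receptor subunits made up most of these calls. Grin2a, Grin2b and Grin2d were higher in AAV-Cre WT mice in both STR and SN. Some marker sums also separated these groups. In STR, striatal projection neuron sums were 6314 to 8686 cpm in AAV-Cre and 9420 to 12132 cpm in Nestin-Cre WT libraries. In SN, cholinergic neuron sums were 203 to 285 and 143 to 197 cpm in the same order. The part of these markers in the calls was not tested. Grin2a, the subunit that dominates adult forebrain NMDA receptors, was 1.45 to 5.79 cpm (median 2.11) in Nestin-Cre and 6.97 to 11.3 cpm (median 8.9) in AAV-Cre STR WT libraries (log2 difference 1.59, SE 0.25, adjusted p = 1.36e-06). In SN it was 0.758 to 2.72 cpm (median 1.39) and 3.92 to 7.64 cpm (median 5.77) (log2 difference 1.98, SE 0.27, adjusted p = 7.74e-08). 7 of 7 AAV-Cre libraries in STR and 7 of 7 in SN lay above every Nestin-Cre library. For Grin2b, whose values in these groups are given above, the log2 difference was 1.82 in STR (SE 0.26, adjusted p = 3.33e-07) and 2.44 in SN (SE 0.31, adjusted p = 1.41e-08), with 7 of 7 and 7 of 7 AAV-Cre libraries above every Nestin-Cre library. Grin2d was 2.78 to 8.11 cpm (median 5.36) and 10.6 to 15.2 cpm (median 11.4) in STR, and 13.6 to 23.2 cpm (median 17.9) and 28 to 55.1 cpm (median 42.6) in SN, with log2 differences of 1.14 and 1.18 (adjusted p = 1.05e-06 and 7.31e-08). All AAV-Cre libraries lay above all Nestin-Cre libraries for Grin2d in both regions.

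Beyond the NMDA subunits, STR showed a lower Slc17a7 (log2 difference -2.04, SE 0.74, adjusted p = 0.0198) and a higher Slc17a6 (log2 difference 1.25, SE 0.37, adjusted p = 0.00453) in AAV-Cre WT mice, with overlapping groups in both cases. DESeq2 gave no adjusted p for Slc17a7. Cortical excitatory marker sums in the same libraries were 309 to 428 (median 341) cpm in Nestin-Cre and 198 to 256 (median 226) cpm in AAV-Cre STR WT libraries, led by Lamp5 in both, with 10 of 10 markers found and 0 of them without a read. Thalamic, subthalamic and red nucleus marker sums were 136 to 148 (median 144) and 145 to 239.6 (median 171) cpm, led by Six3, with 10 of 10 found and with 0 and 1 of them without a read in the group. Which cells of STR carried Six3 was not tested. In SN, Grik3 was 32.3 to 72.1 cpm (median 42.4) in Nestin-Cre and 81.5 to 118 cpm (median 92.6) in AAV-Cre WT libraries (log2 difference 1.06, SE 0.12, adjusted p = 3.53e-09), and all 7 AAV-Cre libraries lay above all 6 Nestin-Cre libraries. Grm2 in SN differed by 1.73 (SE 0.30, adjusted p = 7.05e-06), with 5 of 7 AAV-Cre libraries above every Nestin-Cre library. The part of these marker differences in the results was not tested.

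Levels of Grin2a and Grin2b mostly rose with the long-gene index of the libraries. Genes and index were picked after this pattern was seen, so r, on log2 values with genotype means removed, is a description with no test. For Grin2b r was 0.93 (at least as high in 0.938% of 15675 genes) in the 19 Nestin-Cre STR libraries and 0.75 (at least as high in 0.804% of 15675 genes) in the 22 AAV-Cre SN libraries. In Nestin-Cre SN it was 0.55 (at least as high in 21.2% of 15675 genes), and 0.25 without the 2 farthest libraries. Grin2a gave 0.94 (at least as high in 0.555% of 15675 genes) in Nestin-Cre STR, 0.68 (at least as high in 12.7% of 15675 genes) in Nestin-Cre SN and 0.72 (at least as high in 1.09% of 15675 genes) in AAV-Cre SN. In the other sets the share of genes with at least that r ran from 1.07% to 5.33%. Over the 6 sets of libraries r lay between 0.55 and 0.93 for Grin2b and between 0.67 and 0.94 for Grin2a. Without the 2 farthest libraries r also fell for Grin2a in Nestin-Cre SN, from 0.68 to 0.40, and in AAV-Cre STR, from 0.67 to 0.46, and for Grin2b in AAV-Cre PFC, from 0.65 to 0.41. With the index as a covariate the members called between the models went from 5 to 1 in STR, where Slc17a7 was kept, and from 5 to 0 in SN, and the genes called from 849 to 704 and from 742 to 173. In STR the log2 differences of Grin2a, Grin2b and Grin2d were then 0.57, 0.72 and 0.68 (adjusted p = 0.0494, 0.02 and 0.0152), lost by the 2-fold minimum alone. That of Slc17a6 was 0.72 (adjusted p = 0.296). In SN the values of Grin2a, Grin2b, Grin2d and Grik3 were 0.18, 0.51, 0.42 and 0.24. Grm2 in SN stayed at 1.51 but with an adjusted p of 0.137. Model and index differ together in these groups, and their parts cannot be told apart.

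**Figure D3:**
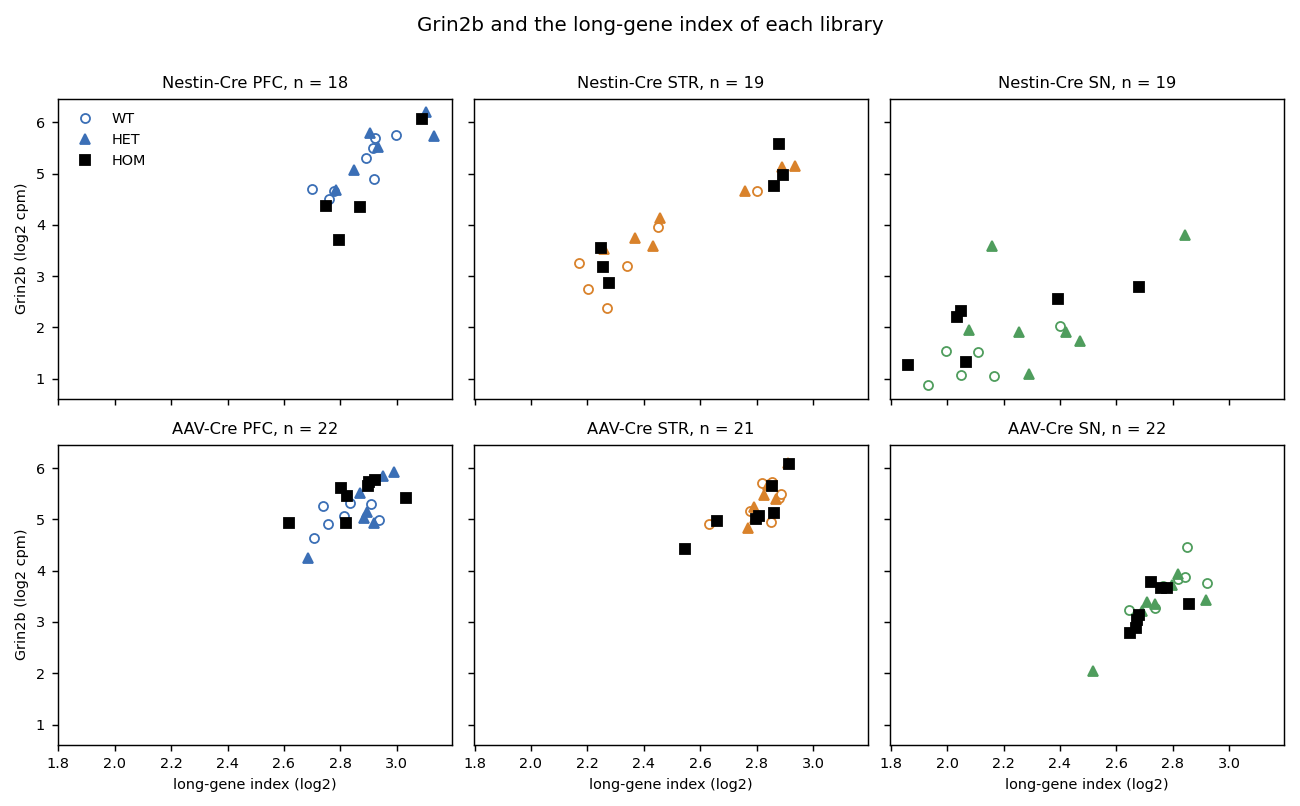
Grin2b level (log2 cpm) against the long-gene index of every library, with a panel for each model and region and a mark for each genotype (WT open circles, HET triangles, HOM squares). Nestin-Cre STR and SN libraries reach lower on both axes than AAV-Cre libraries, and libraries with a higher index mostly have more Grin2b.

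The difference between regions was itself compared between the models in WT mice. Of 27 members 25 were called in at least 1 of 3 such interactions, against 61.8% of 15318 genes, with 10 for STR minus PFC (beside 29.4% of all genes), 23 for SN minus PFC (beside 45%) and 15 for SN minus STR (beside 34%). The first of these counts lies near the share of all genes. For SN minus PFC 22 of the 23 were positive, meaning that SN stood higher relative to PFC in AAV-Cre than in Nestin-Cre mice, with the largest value for Grin2b (log2 interaction 2.52, SE 0.38, adjusted p = 2.63e-06). The median of the 27 was 0.53, beside 0.03 over all genes. With the index as a covariate 13 of the 25 remained. Of single calls 0 of 10, 1 of 23 and 12 of 15 were kept for STR minus PFC, SN minus PFC and SN minus STR. For SN minus PFC, Grin2b then stood at 0.41, and Grin3a and Grm5 changed sign, from 0.53 and 0.36 to -0.11 and -0.018. Other calls were lost by their adjusted p with values near the first: Grm2 at 1.70 (from 1.94), Grm8 at 0.77 (from 0.83), Grik5 at 0.63 (from 0.53) and Grin2c at 0.50 (from 0.52).

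Genotypes were compared within each model and region at an adjusted p under 0.1 with no minimum fold, and no member was called in any of the 12 comparisons. Beside each count of members stands the share of all genes under the same rule. In Nestin-Cre PFC, HET against WT gave 0 of 26 by edgeR (0% of 14386 genes), 2 at an unadjusted p under 0.05 (9.72%), 1 by the likelihood ratio test (2.88%) and 0 by DESeq2 (0.806%). In the same tissue HOM against WT gave 0 of 26 by edgeR (0.25% of 14386 genes), 1 at an unadjusted p under 0.05 (10.1%), 0 by the likelihood ratio test (2.15%) and 0 by DESeq2 (1.58%). In Nestin-Cre STR, HET against WT gave 0 of 26 by edgeR (0% of 14494 genes), 2 at an unadjusted p under 0.05 (17.3%), 2 by the likelihood ratio test (8.57%) and 0 by DESeq2 (3.69%). In the same tissue HOM against WT gave 0 of 26 by edgeR (0% of 14494 genes), 1 at an unadjusted p under 0.05 (4.62%), 1 by the likelihood ratio test (1.91%) and 0 by DESeq2 (0.0069%). In Nestin-Cre SN, HET against WT gave 0 of 27 by edgeR (0% of 14873 genes), 5 at an unadjusted p under 0.05 (8.99%), 3 by the likelihood ratio test (2.23%) and 0 by DESeq2 (0.0336%). In the same tissue HOM against WT gave 0 of 27 by edgeR (0% of 14873 genes), 2 at an unadjusted p under 0.05 (4.09%), 2 by the likelihood ratio test (0.8%) and 0 by DESeq2 (0.00672%). Leaving out each of the 4 Nestin-Cre PFC HOM libraries in turn gave 0 members each time, and 36, 1, 9 and 122 genes overall against 36 with all 4. HET and HOM groups share their WT libraries, so their results stand side by side and are not independent.

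The AAV-Cre model gave the same count of 0. In AAV-Cre PFC, HET against WT gave 0 of 26 by edgeR (0% of 14628 genes), 4 at an unadjusted p under 0.05 (12.3%), 2 by the likelihood ratio test (1.7%) and 0 by DESeq2 (0.041%). In the same tissue HOM against WT gave 0 of 26 by edgeR (0.0137% of 14628 genes), 5 at an unadjusted p under 0.05 (14.2%), 4 by the likelihood ratio test (2.93%) and 0 by DESeq2 (1.26%). In AAV-Cre STR, HET against WT gave 0 of 26 by edgeR (0% of 14655 genes), 0 at an unadjusted p under 0.05 (1.71%), 2 by the likelihood ratio test (0.382%) and 0 by DESeq2 (0%). In the same tissue HOM against WT gave 0 of 26 by edgeR (0% of 14655 genes), 1 at an unadjusted p under 0.05 (4.58%), 2 by the likelihood ratio test (1.19%) and 0 by DESeq2 (0.0341%). In AAV-Cre SN, HET against WT gave 0 of 27 by edgeR (0% of 14813 genes), 4 at an unadjusted p under 0.05 (4.69%), 6 by the likelihood ratio test (2.19%) and 0 by DESeq2 (0.00675%). In the same tissue HOM against WT gave 0 of 27 by edgeR (0% of 14813 genes), 2 at an unadjusted p under 0.05 (7.49%), 3 by the likelihood ratio test (1.47%) and 0 by DESeq2 (0.0675%). In none of the 12 comparisons did all mutant libraries lie above, or all below, all WT libraries for any member, and 0.00675% to 1.01% of all genes did so. Over all genes the likelihood ratio test called more than the quasi-likelihood test in each of the 12 comparisons, 1242 against 0 in Nestin-Cre STR HET for instance.

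The 3 smallest unadjusted p of each model are given for the record; none passed. In the Nestin-Cre model Grm8, a group III receptor that lowers transmitter release, was in STR 7.26 to 13.5 cpm (median 10.03) in WT and 5.67 to 8.22 cpm (median 6.82) in HOM libraries (log2 fold change -0.60, SE 0.18, adjusted p = 0.784, 0.203 to 1 over its alternatives). Of the HOM libraries 6 of 6 lay below the WT median and the groups overlapped. Grin2b in SN was 1.72 to 3.97 cpm (median 2.38) in WT and 2.03 to 13.9 cpm (median 3.67) in HET libraries (log2 fold change 1.22, SE 0.41, adjusted p = 0.518, 0.00216 to 1 over its alternatives). Of the HET libraries 6 of 7 lay above the WT median, and the long-gene index in the same HET libraries was 2.08 to 2.85 (median 2.29), with a median above that of WT. Without the HET library high in striatal markers the log2 fold change was 0.97 (adjusted p = 0.494). Grm3 in SN was 41.2 to 68 cpm (median 58) in WT and 29.9 to 49.6 cpm (median 38.1) in HOM libraries (log2 fold change -0.49, SE 0.16, adjusted p = 0.892, 0.153 to 0.922 over its alternatives). Of the HOM libraries 6 of 6 lay below the WT median.

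In the AAV-Cre model Grm8 in PFC was 10.8 to 20.7 cpm (median 15.2) in WT and 17.5 to 24.4 cpm (median 19.9) in HOM libraries (log2 fold change 0.37, SE 0.11, adjusted p = 0.2, 0.0254 to 0.247 over its alternatives). Of the HOM libraries 8 of 8 lay above the WT median, a direction opposite to that in Nestin-Cre STR. Gria2 in SN was 282 to 402 cpm (median 362) in WT and 285 to 329 cpm (median 299) in HOM libraries (log2 fold change -0.24, SE 0.07, adjusted p = 0.563, 0.105 to 0.778 over its alternatives). Of the HOM libraries 8 of 8 lay below the WT median. Slc17a6 in PFC was 10.9 to 14.3 cpm (median 11.9) in WT and 10.8 to 20.9 cpm (median 16.4) in HOM libraries (log2 fold change 0.37, SE 0.12, adjusted p = 0.23, 0.0519 to 0.677 over its alternatives), with 7 of 8 HOM libraries above the WT median. Signs over the whole set in SN are given as a description with no test, and the quasi-likelihood test called no member there. In Nestin-Cre HET mice 23 of 27 members had a positive log2 fold change, beside 50.4% of all genes. Their median was 0.21 beside 0.00 over all genes. In AAV-Cre HET mice 24 of 27 were negative, with a median of -0.07 beside 0.00, and 50.2% of all genes were positive. Without the HET library high in striatal markers 23 of 27 were positive in Nestin-Cre mice, with a median of 0.17 beside -0.001. Without the WT library high in them 21 of 27 were negative in AAV-Cre mice, with a median of -0.07 beside 0.00. The median long-gene index in these 2 comparisons went from 2.08 in WT to 2.29 in HET libraries of Nestin-Cre SN and from 2.82 to 2.74 in AAV-Cre SN. In AAV-Cre SN HOM mice 16 of 27 members were negative, with a median of -0.06 beside 0.01 over all genes, and the median index was 2.70. In Nestin-Cre SN HOM mice 21 of 27 members were positive, with a median of 0.17, beside 0.00 over all genes, and the index was 1.86 to 2.68 (median 2.06). Oligodendrocyte sums were 16669 to 25689.6 (median 23281) cpm in Nestin-Cre SN HET and 15908 to 24658 (median 20776) cpm in Nestin-Cre SN HOM libraries, beside the higher WT median given above. In AAV-Cre SN HET libraries they were 15673 to 22744 (median 18678) cpm, beside a lower WT median of 17546 cpm. The AAV-Cre SN HET group includes the library high in choroid plexus markers. The part of the markers in these shifts was not tested. In Nestin-Cre STR the index was 2.31, 2.46 and 2.57 in WT, HET and HOM libraries, with member medians of 0.02 and 0.04 for HET and HOM.

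**Figure D4:**
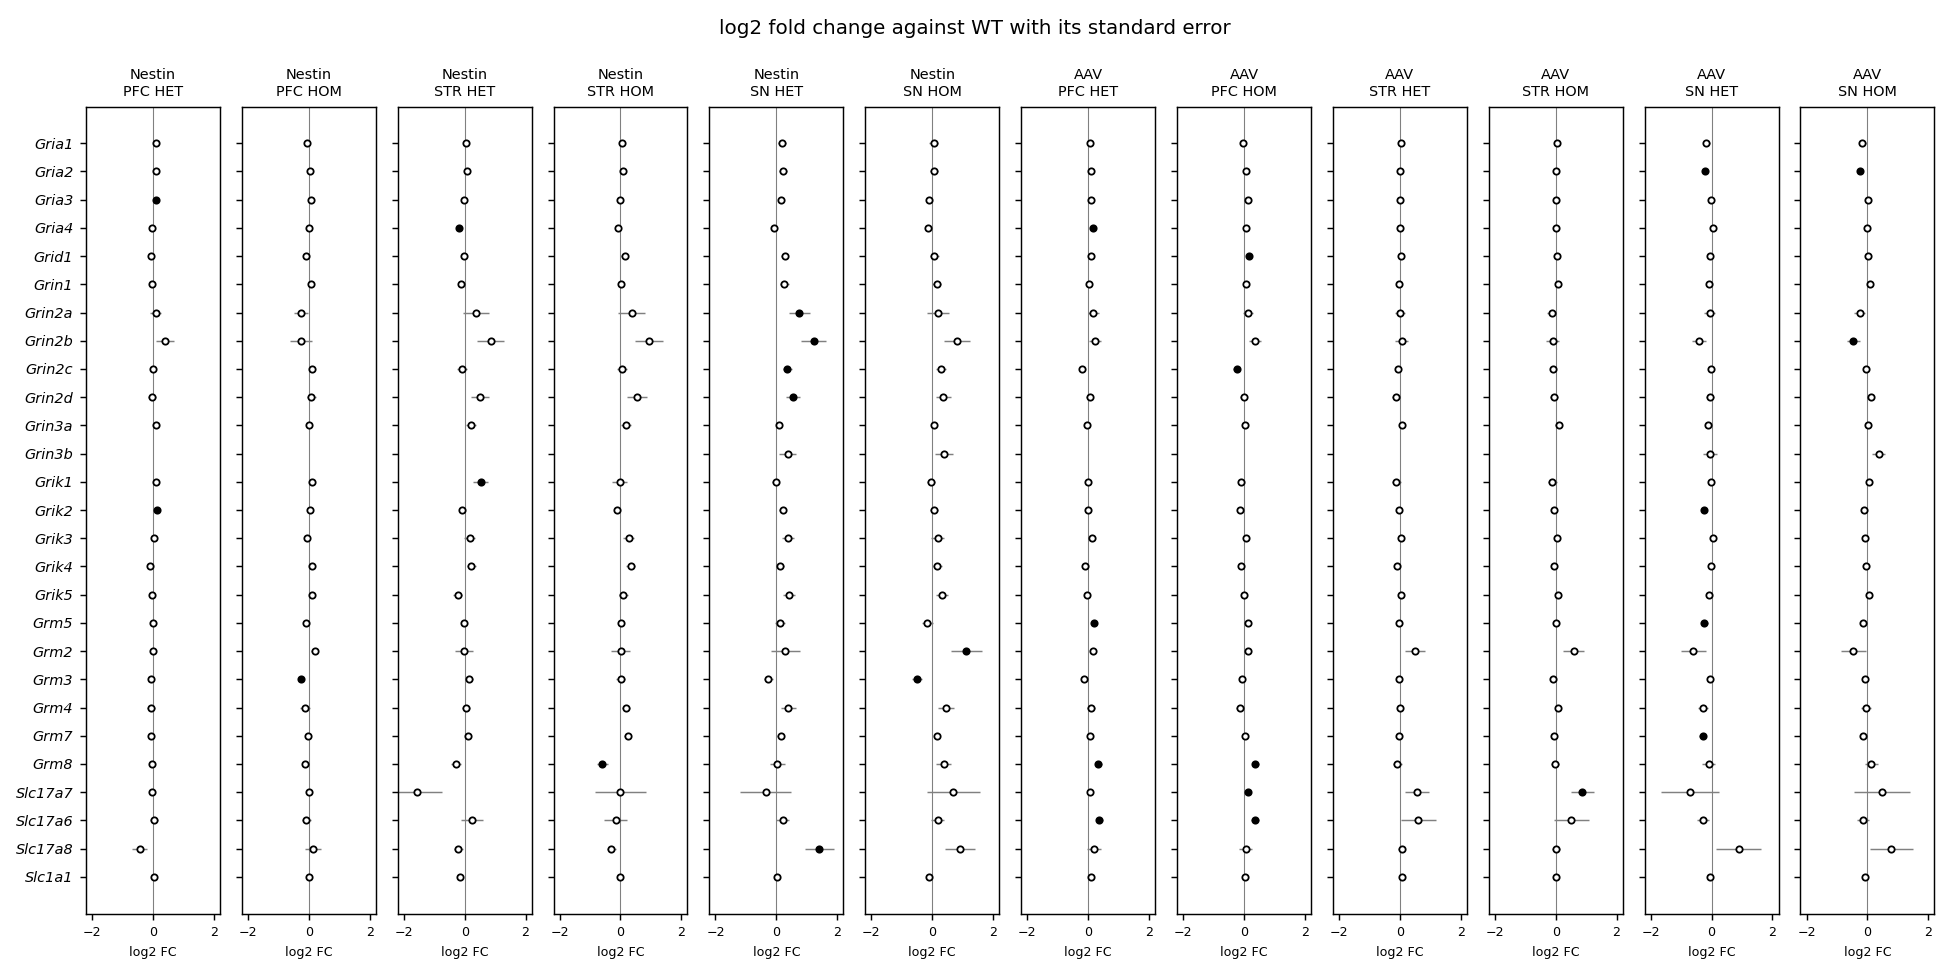
Log2 fold change of each tested member in the 12 comparisons of HET or HOM with WT, with SE as bars and filled points at an unadjusted p under 0.05. None passed an adjusted p of 0.1, and Nestin-Cre SN HET values lie mostly above 0 while AAV-Cre SN HET values lie mostly below.

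Interactions of genotype were called for few members. Genotype by region was tested 12 times, and 2 of 27 members were called in at least 1, against 4.96% of 15675 genes. Both calls compare the effect of the HET genotype between SN and STR of Nestin-Cre mice: Grin1 (log2 interaction 0.38, SE 0.13, adjusted p = 0.0818, 0.0485 to 0.17 over its alternatives) and Grik5 (log2 interaction 0.64, SE 0.18, adjusted p = 0.0313, 8.03e-04 to 0.0633). In STR of these mice striatal projection neuron sums were 6104 to 10606 (median 7358) cpm in HET and 9420 to 12132 cpm in WT libraries. A HET library in STR also stood apart by choroid plexus markers, at 18918 cpm. The part of these markers in the 2 calls was not tested. Genotype by model was tested 6 times, and 4 of 27 members were called, against 6.44%. All 4 compare the HET effect in SN between models: Gria2 (log2 interaction -0.45, SE 0.13, adjusted p = 0.0686), Grin2b (log2 interaction -1.69, SE 0.52, adjusted p = 0.0774), Grik2 (log2 interaction -0.48, SE 0.12, adjusted p = 0.0285) and Grm7 (log2 interaction -0.46, SE 0.13, adjusted p = 0.06). Their adjusted p over alternatives ran 0.0594 to 0.314, 2.53e-15 to 0.337, 0.0186 to 0.0872 and 0.0271 to 0.292. With the long-gene index as a covariate 1 of these 4, Grik2, was still called, and both calls of genotype by region were kept. Without the Nestin-Cre SN HET library high in striatal markers Grik5 was kept (0.60, adjusted p = 0.0633) and Grin1 was lost (0.37, adjusted p = 0.118). Between models Grik2 (-0.38, adjusted p = 0.0872) and Grm7 (-0.44, adjusted p = 0.0929) were kept, while Gria2 (-0.39, adjusted p = 0.112) and Grin2b (-1.43, adjusted p = 0.133) were lost, and Grik1 was called anew. Of all genes 3.47% and 5.7% then had a called interaction by region and by model. Without the AAV-Cre SN WT library high in those markers, Grin1 and Grik5 were kept. Between models Grik2 alone was kept (-0.48, adjusted p = 0.0646), and Gria2, Grin2b and Grm7 had adjusted p of 0.107, 0.11 and 0.115, beside 3.48% of all genes. Since the quasi-likelihood test called no member in Nestin-Cre or AAV-Cre SN HET mice, these differences rest on shifts of opposite sign in the 2 models that it did not call on their own. The likelihood ratio test called 3 and 6 members in these 2 comparisons.

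Of 4 lists of genes whose products work beside these receptors, the postsynaptic scaffold genes alone were mostly called lower in SN than in PFC in both models. Of all genes 13.1% were called lower and 11.7% higher in SN than in PFC of Nestin-Cre WT mice, and 9.39% lower and 7.81% higher in the AAV-Cre model. The 12 auxiliary subunits of AMPA receptors had 0 of 12 higher and 7 lower in Nestin-Cre mice, then 0 of 12 higher and 5 lower in AAV-Cre WT mice, and the 2 of kainate receptors had 0 of 2 higher and 1 lower and 0 of 2 higher and 1 lower. The 20 postsynaptic scaffold genes had 0 of 20 higher and 16 lower and 1 of 20 higher and 15 lower. The 14 genes of glutamate uptake and recycling had 0 of 14 higher and 0 lower and 1 of 14 higher and 1 lower. The largest log2 differences of SN against PFC in Nestin-Cre WT mice included Camk2a (-4.36, SE 0.29, adjusted p = 6.68e-17), Dlgap2 (-3.87, SE 0.16, adjusted p = 2.18e-23), Cnih3 (-3.36, SE 0.19, adjusted p = 1.04e-18) and Cacng3 (-2.67, SE 0.11, adjusted p = 3.43e-23). Against STR, SN was lower for Neto1 (-3.31, SE 0.18, adjusted p = 2.62e-19), Neto2 (-1.80, SE 0.12, adjusted p = 3.07e-17), Homer1 (-3.37, SE 0.16, adjusted p = 1.89e-21) and Shisa7 (-2.94, SE 0.13, adjusted p = 1.81e-22) and higher for the uptake and recycling genes Slc7a11 (1.60, SE 0.22, adjusted p = 2.76e-08) and Slc38a2 (1.33, SE 0.10, adjusted p = 2.91e-15) in the same mice, and higher for Slc1a6 (2.19, SE 0.14, adjusted p = 2.93e-17) in AAV-Cre WT mice. Of the 4 lists none had a gene called between genotypes in any of the 12 comparisons, the smallest adjusted p being 0.175. At an unadjusted p under 0.05, the most in any 1 comparison were 3 of 12, 1 of 2, 10 of 20 and 6 of 14 genes in the order given. The 10 of 20 scaffold genes were in Nestin-Cre SN HET mice, with a median log2 fold change of 0.29 over the list, beside 8.99% of all genes, in the comparison where most members were also positive. Without the HET library high in striatal markers they were 5 of 20, with a median of 0.24, beside 9.53%. The 6 of 14 uptake and recycling genes were in AAV-Cre PFC HET mice, beside 12.3%.

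The promoters of these genes were looked up in RefSeq annotation on build GRCm38.p6, where 19 of 28 members matched, with 24 entries of 300 bases. The motif GGGCGG, bound by Sp1, occurs on either strand in 35.7% of all 32851 promoters, CAGATG, an E-box, in 17.2%, and TATAAA in 13.6%. Slc17a7 has 1 entry and Slc17a6 and Slc17a8 have 2 each. Of these, Slc17a7 (chr7:45163671-45163970, plus strand) and Slc17a6 (chr7:51621580-51621879, plus strand) carry GGGCGG on 1 or both strands, and Slc17a8 (chr10:89621200-89621499, minus strand) carries none of the 3 motifs. The second entries of Slc17a6 (chr7:51624387-51624686, plus strand) and Slc17a8 (chr10:89599766-89600065, minus strand) carry CAGATG and neither of the other motifs. The Slc17a7 promoter reads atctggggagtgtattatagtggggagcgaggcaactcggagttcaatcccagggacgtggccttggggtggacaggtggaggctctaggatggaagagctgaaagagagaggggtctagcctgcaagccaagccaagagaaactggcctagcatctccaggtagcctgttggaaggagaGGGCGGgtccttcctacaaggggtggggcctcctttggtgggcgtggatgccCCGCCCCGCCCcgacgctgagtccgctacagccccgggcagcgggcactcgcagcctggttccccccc. The first Slc17a6 promoter reads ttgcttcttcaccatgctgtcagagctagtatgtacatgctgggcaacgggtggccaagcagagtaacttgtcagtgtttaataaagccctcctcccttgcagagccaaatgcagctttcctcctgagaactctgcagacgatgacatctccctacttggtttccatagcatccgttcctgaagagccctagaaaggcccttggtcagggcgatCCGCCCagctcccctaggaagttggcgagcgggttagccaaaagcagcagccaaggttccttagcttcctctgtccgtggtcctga. The median CG count was 12.5 over the 24 entries, beside 7 over all promoters. What the motifs do in these tissues was not tested.

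These data have limits that bear on the 28 genes. Whole tissue was measured, so a level mixes the cells that carry a receptor with those that do not. Transcript levels say nothing of receptor protein, subunit assembly or synaptic placement. Groups held 4 to 8 mice, all male, and a genotype effect smaller than the spread between mice would not be called; a count of 0 does not show that levels were equal. The labels give no RNA integrity, dissection or batch record, and the models differ in several ways together. Grm6 could not be tested and Grin3b rests on few reads.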

How the data were processed

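The authors made stranded poly(A) libraries and sequenced 75-bp single-end reads. They demultiplexed them with bcl2fastq 2.20.0.422, aligned them to mm10 with STAR 2.5.2b and counted them with featureCounts 1.5.1, so each deposited value is a raw read count for a gene. The deposited Length column, of the other kind of value, gives exon bases per gene by the authors' featureCounts run and was used for RPKM and to choose the genes of the long-gene index. Total counts per library ran from 9869584 to 26750905.

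Members and lists were chosen with earlier results of these data known. Tests used R 4.3.3 and edgeR 4.0.16 with limma 3.58.1: TMM scaling, a low-count filter that kept genes reaching 1 cpm in 3 or more libraries, and the quasi-likelihood F test, which pools the spread over genes and suits groups of 4 to 8 animals. P-values were adjusted by Benjamini and Hochberg over all genes tested. A gene was called at an adjusted p under 0.1, with at least a 2-fold difference where WT regions or models were compared. Genotypes were compared within each model and region, and interactions of genotype, region and model were tested as differences of differences. Alternatives were the edgeR likelihood ratio test, DESeq2 1.42.0, its size factors, no low-count filter, a threshold of 0.05, no minimum fold, smaller or larger fits, leaving out libraries, and mouse as a replicate block. The long-gene index as a covariate, and leaving out each of 2 SN libraries high in striatal markers, were added after the data were seen. The tests were tried on simulated counts, where DESeq2 was liberal; the limit set for its false calls was loosened after that was seen.

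Pairing of libraries by mouse number was checked: with group means removed, libraries of 1 mouse from different regions had a median correlation of 0.168 to 0.247 over genes, and libraries of different mice had medians near 0. Every member is named, though not every regional call is printed. Values per sample were to be given for members called between genotypes, else for the 3 with the smallest unadjusted p of each model, for the member with the largest regional difference in each family, and for Gdnf; of companion genes the 3 with the largest regional difference in each list are named. Values of other members were added after they were seen. Of 16 marker lists those quoted are striatal projection neuron, midbrain dopamine neuron, cortical excitatory neuron, thalamic, subthalamic and red nucleus neuron, serotonergic neuron, cholinergic neuron, oligodendrocyte and choroid plexus.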

Additional observations from a re-analysis of the deposited data

Results flagged for a closer look

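Of 119 sets of printed values that were checked, 8 held a library far from the others of its group. The rule was Dixon's: the gap from the highest or lowest library to the next, over the range, above the 95% critical value for that group size, which by chance flags about 1 in 20 groups. They were the sum of striatal projection neuron markers in AAV-Cre SN WT (highest 859.6, the others 282 to 393 cpm); the sum of striatal projection neuron markers in Nestin-Cre SN HET (highest 1506, the others 284 to 355 cpm); Slc17a8 in AAV-Cre SN WT (highest 7.19, the others 0.768 to 2.19 cpm); Grin2b in AAV-Cre SN WT (highest 22.1, the others 9.33 to 14.6 cpm); Grik2 in AAV-Cre STR WT (highest 190.1, the others 157 to 169.8 cpm); Grin2a in Nestin-Cre SN WT (highest 2.72, the others 0.758 to 1.4 cpm); the sum of thalamic, subthalamic and red nucleus markers in Nestin-Cre STR WT (lowest 136, the others 144 to 148 cpm); Grik3 in Nestin-Cre SN WT (highest 72.1, the others 32.3 to 45.8 cpm). The library highest for Slc17a8 in AAV-Cre SN WT is also the highest there for striatal projection neuron markers. Over all groups of the 27 tested members it was 28 of 486.

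Some effects differed between regions or models by an interaction test. In Nestin-Cre mice the HET effect was higher in SN than in STR for Grin1 (0.38 on the log2 scale) and Grik5 (0.64), which are 2 of 27 members beside 4.96% of all genes, and both were kept with the long-gene index as a covariate. In STR of these mice striatal projection neuron sums were 6104 to 10606 cpm in HET and 9420 to 12132 cpm in WT libraries. A HET library in STR had 18918 cpm of choroid plexus markers. Without the Nestin-Cre SN HET library high in striatal projection neuron markers Grik5 alone was kept. In SN the HET effect was lower in the AAV-Cre than in the Nestin-Cre model for Gria2 (-0.45), Grin2b (-1.69), Grik2 (-0.48) and Grm7 (-0.46), which are 4 of 27 beside 6.44% of all genes, and with that covariate Grik2 alone was kept. Without that HET library Grik2 and Grm7 were kept, and without the AAV-Cre SN WT library high in the same markers Grik2 alone. Among WT mice the regional difference changed with the model for 10 members in STR against PFC (beside 29.4% of all genes), 23 in SN against PFC (beside 45%) and 15 in SN against STR (beside 34%). With the covariate 0, 1 and 12 of these calls were kept. What lies behind these differences was not tested.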

How the results depend on the processing

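The count of 0 members between genotypes held under 97 of 109 alternatives, DESeq2 in all 12 comparisons among them. Some of these only lowered the threshold for the adjusted p and could not add a call, so their result was fixed in advance. Leaving out each Nestin-Cre PFC HOM replicate in turn gave 0 to 0. Leaving out 1 Nestin-Cre SN HET or 1 AAV-Cre SN WT replicate, each high in striatal markers and chosen after the data were seen, gave 0 to 0 between genotypes in SN, 1 to 2 for genotype by region and 1 to 3 for genotype by model. With the edgeR likelihood ratio test HET and HOM counts were 1 and 0 in Nestin-Cre PFC, 2 and 1 in STR, 3 and 2 in SN, 2 and 4 in AAV-Cre PFC, 2 and 2 in STR, and 6 and 3 in SN, and 11 members had a called interaction of genotype by region (against 2, of which 1 shared; 9.95% of all genes) and 13 of genotype by model (against 4, all shared; 13.8%). Fitting the 3 regions of a model together gave, for Nestin-Cre STR HET, 1. Of the other 12 counts 83 of 99 alternatives were within 1.5 times. With no minimum fold, a wider rule by construction, members called were 22 and 26 for STR and SN against PFC in Nestin-Cre (beside 70.3% and 80.3% of all genes), 17, 25 and 27 for STR against PFC, SN against PFC and SN against STR in AAV-Cre (beside 61.3%, 70.5% and 72.1%), and 11, 15 and 21 between models in PFC, STR and SN (beside 41.1%, 59.7% and 62.7%). Adjusting for the long-gene index, an alternative chosen after the data were seen, the counts for STR and SN against PFC and SN against STR in Nestin-Cre WT mice were 11, 13 and 17 (against 14, 16 and 20), those of the AAV-Cre model were unchanged, and the counts between models were 1 in STR and 0 in SN, 1 for genotype by model and 13 for region by model, and Grin3a (-0.11) and Grm5 (-0.018) changed sign for SN minus PFC between models; the cause was not tested. Mouse as a replicate block gave 14, 16 and 20 members for Nestin-Cre STR against PFC, SN against PFC and SN against STR, then 8, 11 and 15 for the AAV-Cre model, losing Slc17a7 for SN against STR in AAV-Cre mice, with 3 for genotype by region and 24 for region by model, and changed no other regional call. Of single members called, 1081 of 1170 alternatives kept direction and side of the threshold. Of these, 95 dropped the minimum fold and could only keep a call. With the long-gene index as a covariate 57 of 149 were not kept. Low counts limit what can be said of Grm6 and Grin3b, whose values are given above.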
